A study of Mus musculus with 6 samples.

Results

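A set of 38 genes was expressed in Tyr-L cells and nearly silent in Tyr-H cells. Both are subclones of B16, a pigmented mouse melanoma line of C57BL/6 origin. Tyr-L cells are labelled as having low tyrosinase activity and Tyr-H cells as having high activity, and both were grown without further treatment in low-glucose DMEM with serum. RNA was sequenced in 3 libraries of each subclone type, and expression was given as FPKM, fragments per kilobase of transcript and scaled to the mapped fragments of the library. A gene belonged to the set when each of the 3 Tyr-H libraries was under 0.15 FPKM and each of the 3 Tyr-L libraries had at least 0.3 FPKM, with a gene that a library does not list counted as 0. Of 20788 genes that appear in any library these 38 were 0.183%, and they were 0.312% of the 12162 genes with at least 0.3 FPKM in every Tyr-L library. The opposite rule, near-silent in Tyr-L and expressed in Tyr-H, was met by 40 genes, 0.334% of the 11965 genes with at least 0.3 FPKM in every Tyr-H library. Because FPKM in these libraries chose the 38 genes, their difference between the groups is given as a description with no test. The cells were obtained by picking single clones, so a difference between the groups cannot be told apart from a difference between the clones picked. Separate cultures for the 3 libraries of each type are not stated in the sources used here, and SD and p-values may cover technical spread only.

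Melanocytes arise from the neural crest, the embryonic tissue that also gives Schwann cells, peripheral neurons and part of the skeleton of the face. Melanoma cells keep the pigment genes of this lineage under the transcription factor MITF, and cell lines often carry low amounts of RNA from genes that are used mainly in other tissues. Promoters of broadly used genes usually lie in CpG islands, stretches rich in the dinucleotide CG. Promoters of tissue-restricted genes are often poor in CG, which in most of the genome has been lost through methylation of its cytosine.

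Promoter windows of 4 of the genes are shown for this contrast, 3 with few CG dinucleotides and 1 with many. Each runs from 250 bases before to 50 bases after the transcription start given by RefSeq (GRCm38.p6), reads 5′ to 3′ on the strand of the gene, and has each CG in capitals.
Abcc2, chr19:43782058-43782357, plus strand: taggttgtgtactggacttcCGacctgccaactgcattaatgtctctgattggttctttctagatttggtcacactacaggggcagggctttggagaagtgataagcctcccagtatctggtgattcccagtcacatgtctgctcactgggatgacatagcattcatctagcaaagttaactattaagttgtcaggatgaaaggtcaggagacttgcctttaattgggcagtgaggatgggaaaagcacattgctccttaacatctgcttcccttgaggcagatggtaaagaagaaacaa
Sucnr1, chr3:60081619-60081918, plus strand: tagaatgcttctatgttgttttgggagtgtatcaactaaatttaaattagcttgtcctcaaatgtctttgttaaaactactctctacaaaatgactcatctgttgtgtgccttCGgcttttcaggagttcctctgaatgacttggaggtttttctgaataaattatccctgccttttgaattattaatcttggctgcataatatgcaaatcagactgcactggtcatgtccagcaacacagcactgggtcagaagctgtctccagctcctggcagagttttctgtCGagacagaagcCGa
Ifi213, chr1:173599223-173599522, minus strand: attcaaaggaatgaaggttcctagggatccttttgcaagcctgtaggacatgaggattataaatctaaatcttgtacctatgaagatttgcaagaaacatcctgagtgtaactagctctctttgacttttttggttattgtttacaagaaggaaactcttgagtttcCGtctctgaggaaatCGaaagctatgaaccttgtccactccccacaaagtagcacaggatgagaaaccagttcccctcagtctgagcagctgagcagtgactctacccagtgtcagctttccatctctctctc
Gpm6b, chrX:166238693-166238992, plus strand: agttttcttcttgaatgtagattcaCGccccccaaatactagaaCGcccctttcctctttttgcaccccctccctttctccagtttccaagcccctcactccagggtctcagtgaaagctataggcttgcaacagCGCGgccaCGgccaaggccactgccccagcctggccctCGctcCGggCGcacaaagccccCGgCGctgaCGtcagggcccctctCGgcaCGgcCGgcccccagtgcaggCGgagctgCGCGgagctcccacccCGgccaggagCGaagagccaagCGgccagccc

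The *Abcc2* window held 1 CG, the *Ifi213* window 2, the *Sucnr1* window 3 and the *Gpm6b* window 20. RefSeq windows of the same 300 bases were matched by symbol for 18 of the 38 genes. The observed to expected CpG ratio, the number of CG dinucleotides relative to that expected from the C and G content of the window, had a median of 0.272 in these 18 windows. It was 0.768 in the 11449 windows of genes with at least 0.3 FPKM in every Tyr-L library and 0.384 in all 32851 windows. A ratio of at least 0.6 was reached by 6 of the 18 (33.3%), against 71.7% of the genes expressed at that level in Tyr-L and 35.8% of all windows. Among the 2063 windows of genes at that level but with a Tyr-L mean under 3 FPKM, as in the set, the share was 52.3% and the median ratio 0.617, and among the 736 with a mean under 1 FPKM, as for most of the set, 49.9% and 0.597. In the opposite set 10 of 39 windows reached 0.6. The 6 genes with CG-rich windows were *Gpm6b*, *Gm10658*, *Tuba3b*, *Cdh24*, *Cacnb4* and *Exosc6*, with ratios between 0.661 and 0.968. The lowest ratios were those of *Abcc2* (0.0667), *Ifi213* (0.147) and *Fbxw15* (0.167). CATGTG, one form of the E-box to which MITF binds, was found on either strand in 1 of the 18 windows, that of *Abcc2*, against 14.2% of all windows. CACGTG, another form, was found in 0 of 18 against 7.15%. ACAAAG, the core letters of the SOX family motif, was in 6 of 18 (33.3%) against 18.7%, among them *Sucnr1*, *Ifi213* and *Gpm6b*. TATAAA was in 2 of 18, *Ifi213* and *Lrrc14b*, against 13.6%. The 4 motifs differ in their letters, so a stretch that matches one cannot match another. A match describes the letters of a window and is not evidence of binding.

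**Figure D1:**
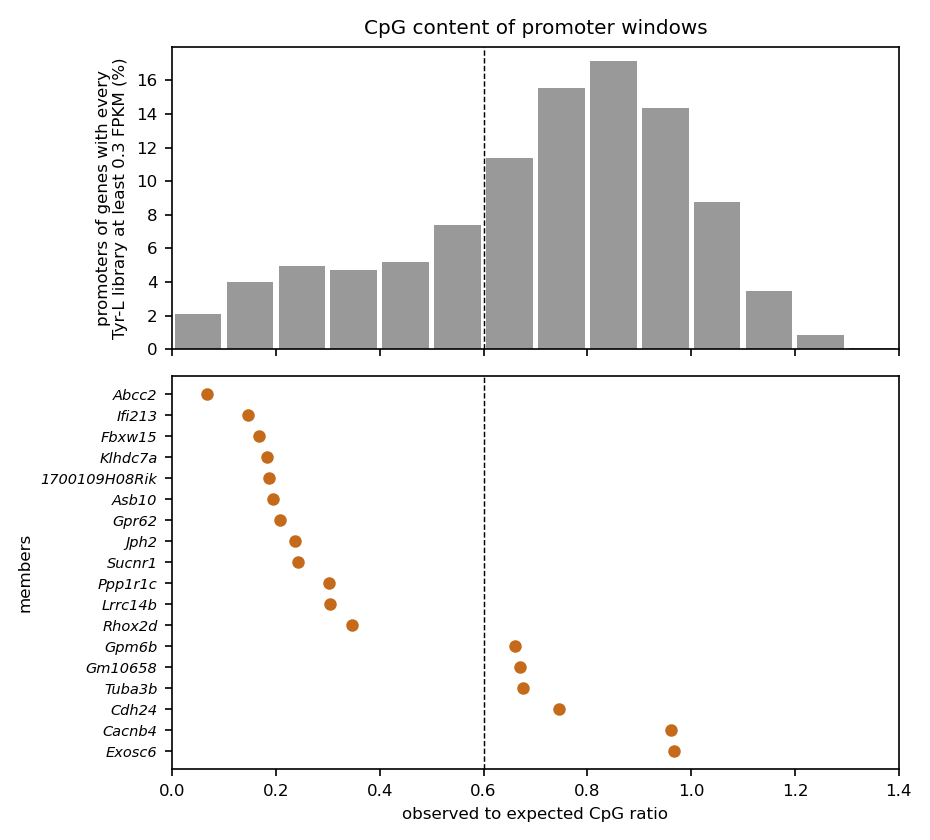
Observed to expected CpG ratio of promoter windows. The upper panel gives the share (%) of the 11449 windows of genes with every Tyr-L library at or above 0.3 FPKM in bins of the ratio, and each point in the lower panel is 1 of the 18 matched genes of the set. The dashed line marks 0.6, and 12 of the 18 points lie to its left, where fewer of the grey bars lie.

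Expression of the 38 genes was low in Tyr-L cells too. Tyr-L means ran from 0.332 to 3.0 FPKM with a median of 0.542, while the median over all genes with at least 0.3 FPKM in every Tyr-L library was 10.9 FPKM. Only 6 genes had a Tyr-L mean of at least 1 FPKM (*Exosc6*, *Abcc2*, *Sucnr1*, *Tuba3b*, *Pmp2* and *Ppp1r1c*), and 17 were under 0.5 FPKM. The name near-silent fits the Tyr-H libraries in level more than in presence. The Tyr-H means ran from 0 to 0.143 FPKM with a median of 0.0637, yet 24 of the 38 genes were listed in all 3 Tyr-H libraries, 8 in 2, 3 in 1 and 3 in none. For the 35 genes listed in some Tyr-H library the Tyr-L mean was 2.65 to 55.4 times the Tyr-H mean, with a median of 7.57 times. Low bulk values such as these cannot tell fewer expressing cells from less RNA per cell.

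The files hold no read counts. A depth of 19600000 to 22600000 fragments in the Tyr-L libraries and 20800000 to 22700000 in the Tyr-H libraries was estimated. It came from low values in a preset range, taken as those of 1 fragment. With it each FPKM was turned into an approximate number of fragments. A gene of the set had 3 to 336 fragments in a Tyr-L library (median 26) and at most 21 in a Tyr-H library (median 3). In 12 genes every Tyr-L library had at least 30 fragments, in 10 genes some Tyr-L library had fewer than 10, and in 16 genes no Tyr-H library had more than 3. The coefficient of variation over the 3 Tyr-L libraries ran from 3.01 to 56.3% with a median of 20.0%, and 11 genes were above 30%. Tyr-L library 1 was the highest of the 3 for 19 genes, library 2 for 9 and library 3 for 10. The summed FPKM of the set was 30.1, 24.7 and 24.7 in the Tyr-L libraries and 2.32, 2.80 and 2.76 in the Tyr-H libraries. *Abcc2* (269 to 336 fragments per Tyr-L library) and *Gm20342* (116 to 119) rested on many fragments, *Cacnb4* had 50 to 216 with the highest coefficient of variation of the set, and short transcripts such as *Gm8066*, with 3 to 7 fragments, are known only roughly.

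**Figure D2:**
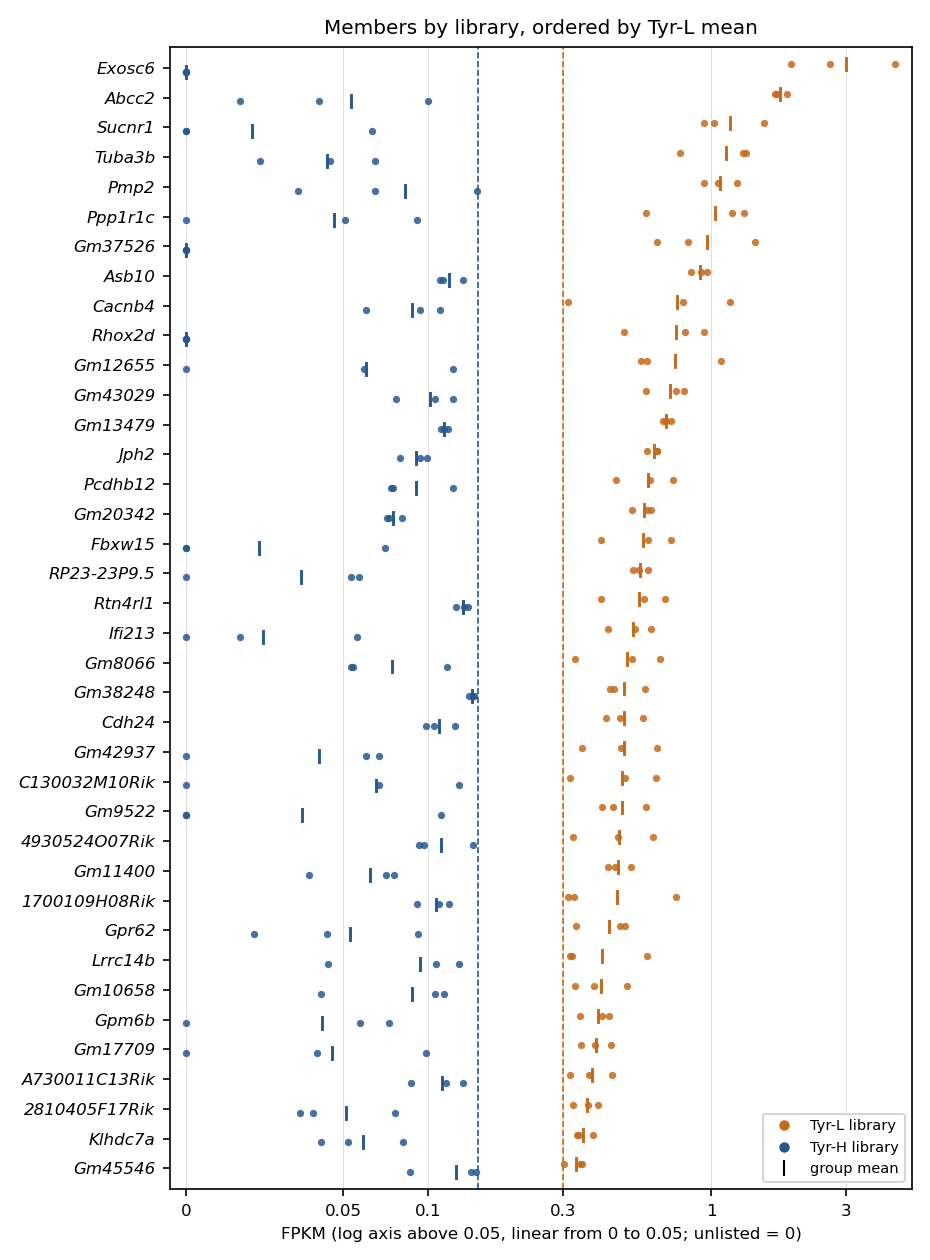
FPKM of the 38 genes in each of the 6 libraries, ordered by the Tyr-L mean, on an axis that is linear from 0 to 0.05 and logarithmic above. Points are libraries, short vertical lines are group means, and the dashed lines mark the limits 0.15 and 0.3 FPKM. The empty band between the limits is the rule itself, and *Exosc6*, *Gm37526* and *Rhox2d* are unlisted in Tyr-H and have all 3 Tyr-H points at 0.

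By annotation the set held 21 protein-coding genes (55.3%), against 90.7% of all genes with at least 0.3 FPKM in every Tyr-L library and 85% of the opposite set. Biotype went with level, since the share was 69.6% among the 2664 such genes with a Tyr-L mean under 3 FPKM and 59.5% among the 1109 with a mean under 1 FPKM, and the difference from the set was not tested. The others were 4 lincRNAs, 4 antisense genes, 4 loci awaiting experimental support (annotated as TEC), 3 processed pseudogenes, 1 processed transcript and 1 sense-intronic transcript. Of protein-coding genes at that Tyr-L level 0.19% met the rule, and of genes of other biotypes 1.5%. Among the 2664 genes with a Tyr-L mean under 3 FPKM, 1.43% met it.

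The 21 coding genes were grouped by the tissue or process each is best known for, a grouping made after the members were known. Genes known from neurons or glia were the largest group with 6, and no group was tested for excess. *Pmp2* (ENSMUSG00000052468) encodes myelin protein P2, a fatty-acid-binding protein of Schwann cell myelin. In libraries 1, 2 and 3 it had 0.944, 1.05 and 1.23 FPKM in Tyr-L and 0.0355, 0.0647 and 0.149 FPKM in Tyr-H, the order kept below. *Cacnb4*, a beta subunit of voltage-gated calcium channels, had 0.794, 1.16 and 0.313 FPKM in Tyr-L and 0.0939, 0.110 and 0.0602 FPKM in Tyr-H. *Gpm6b*, a proteolipid protein of neurons and glia, had 0.436, 0.412 and 0.343 FPKM in Tyr-L, was unlisted in Tyr-H library 2 and had 0.0575 and 0.0724 FPKM in the other two Tyr-H libraries. *Pmp2* and *Gpm6b* were similar in the 3 Tyr-L libraries, while *Cacnb4* was far lower in Tyr-L library 3 than in the other two. *Rtn4rl1*, of the Nogo receptor family that restrains axon growth, had 0.689, 0.577 and 0.407 FPKM in Tyr-L and 0.125 to 0.138 FPKM in Tyr-H, close below the limit. *Pcdhb12*, a clustered protocadherin of neuronal membranes, had 0.730, 0.608 and 0.461 FPKM in Tyr-L and 0.0736 to 0.122 FPKM in Tyr-H. *Gpr62*, an orphan receptor of oligodendrocytes, had 0.497, 0.477 and 0.334 FPKM in Tyr-L and 0.0217 to 0.0921 FPKM in Tyr-H.

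Other genes are best known from liver and kidney, muscle or the germ line. *Abcc2* (ENSMUSG00000025194, chromosome 19, 43782192 to 43840740, plus strand) encodes MRP2, the pump that exports conjugated compounds from hepatocytes into bile and from the kidney tubule into urine. It had 1.67, 1.85 and 1.71 FPKM in Tyr-L, from about 277, 336 and 269 fragments, and 0.0424, 0.0174 and 0.1001 FPKM in Tyr-H, from about 7, 3 and 17. *Sucnr1* (ENSMUSG00000027762, chromosome 3, 60081869 to 60087566, plus strand), the receptor for extracellular succinate found in kidney, liver and immune cells, had 1.02, 0.942 and 1.53 FPKM in Tyr-L. It was unlisted in Tyr-H libraries 1 and 3 and had 0.0632 FPKM in Tyr-H library 2. These were the widest separations among genes listed in both groups, with Tyr-L means 32.7 times the Tyr-H mean for *Abcc2* and 55.4 times for *Sucnr1*, the latter resting on about 2 fragments in Tyr-H.

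Genes known from heart and skeletal muscle numbered 3. *Jph2*, which holds the sarcoplasmic reticulum close to the plasma membrane in heart muscle, had 0.644, 0.593 and 0.642 FPKM in Tyr-L and 0.0795 to 0.0990 FPKM in Tyr-H. *Asb10*, an ankyrin-repeat protein of the SOCS box family, had 0.921, 0.964 and 0.8497 FPKM in Tyr-L and 0.110 to 0.132 FPKM in Tyr-H. Both varied little between libraries of a group. *Lrrc14b*, a leucine-rich repeat gene of muscle, had 0.321, 0.317 and 0.591 FPKM in Tyr-L and 0.0452 to 0.128 FPKM in Tyr-H, and its measurement carries the overlap described further on.

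Genes of the germ line also numbered 3. *Tuba3b*, an alpha tubulin made mainly in testis, had 1.29, 1.32 and 0.777 FPKM in Tyr-L and 0.0237 to 0.0647 FPKM in Tyr-H. *Rhox2d*, of the X-linked homeobox cluster active in reproductive tissue, had 0.946, 0.806 and 0.492 FPKM in Tyr-L and was unlisted in every Tyr-H library. *Fbxw15*, an F-box gene of a mouse cluster known from the oocyte, had 0.597, 0.720 and 0.406 FPKM in Tyr-L, was unlisted in Tyr-H libraries 1 and 2 and had 0.0702 FPKM in Tyr-H library 3. Each of these 3 has similar copies in the genome. By blastn of transcripts *Tuba3b* was 95.2% identical to *Tuba3a* over 84.4% of its length, and *Rhox2d* 97.5% identical to *Rhox2g* over 100%, neither of which is listed. Reads of such copies could be assigned to either gene, and how the authors counted them is not given in the sources used here.

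Other coding genes had no tissue in common. *Exosc6*, a core subunit of the RNA exosome that degrades and trims RNA in every cell, had 4.45, 1.92 and 2.63 FPKM in Tyr-L and was unlisted in every Tyr-H library. *Ppp1r1c*, an inhibitor of protein phosphatase 1, had 1.19, 0.590 and 1.31 FPKM in Tyr-L and at most 0.0909 FPKM in Tyr-H. *Ifi213*, an interferon-inducible gene of the PYHIN family of DNA sensors and nuclear regulators, had 0.537, 0.611 and 0.433 FPKM in Tyr-L and 0.0174, 0.0559 and 0 FPKM in Tyr-H. *Cdh24*, a type II cadherin, had 0.574, 0.478 and 0.424 FPKM in Tyr-L and 0.0978 to 0.124 FPKM in Tyr-H. The 3 remaining coding genes, *Klhdc7a*, *1700109H08Rik* and *C130032M10Rik*, have no settled role and Tyr-L means of 0.353 to 0.484 FPKM.

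The 17 genes of other biotypes were grouped by their position in the GENCODE M21 annotation of GRCm38. Inside a listed gene and on its strand lay 6, among them *Gm37526* in *Maml3*, *Gm43029* in *Tnpo3*, *Gm38248* in *Zranb3* and *Gm11400* in *Sfi1*. *Gm37526* (chromosome 3, 51991341 to 51991959, minus strand) had 1.43, 0.643 and 0.824 FPKM in Tyr-L and was unlisted in each Tyr-H library. Opposite to a listed gene lay 5, such as *RP23-23P9.5* beside *Atp5l* with 0.530, 0.596 and 0.554 FPKM in Tyr-L and at most 0.0570 FPKM in Tyr-H. Apart from any listed gene lay 6, of which the lincRNA *Gm13479* (chromosome 2, 45357265 to 45404035, plus strand) was the most even with 0.718, 0.677 and 0.689 FPKM in Tyr-L and 0.111 to 0.117 FPKM in Tyr-H. All 3 processed pseudogenes resemble RNAs made in large amounts. *Gm11400* was 93.0% identical to *Eef2* (translation elongation factor), *Gm17709* 97.8% identical to *Odc1* (ornithine decarboxylase) and *Gm9522* 85.9% identical to *Gm2574*, 1 of 187 similar genes. These relatives were higher in every Tyr-H library than in any Tyr-L library. *Eef2* had 784 to 810 FPKM in Tyr-L and 1099 to 1130 FPKM in Tyr-H, *Odc1* 199 to 209 and 344 to 347 FPKM, and *Gm2574* 268 to 282 and 340 to 386 FPKM, with Tyr-H to Tyr-L log2 fold changes of 0.48, 0.75 and 0.37, none reaching the limit for a call.

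Genes outside the set could be tested. Those averaging 0.1 FPKM or more across all libraries, 14336 genes, were compared with limma on log2(FPKM + 0.1), two-sided, with Benjamini-Hochberg adjustment. A call needed an adjusted p not above 0.05 together with a log2 fold change of 1 or more in either direction. By this rule 5.78% of tested genes were called lower in Tyr-H and 2.96% higher, and the median log2 fold change over all tested genes was -0.15. All 38 genes of the set passed the filter through their Tyr-L values, and only 10 had a Tyr-H mean of 0.1 FPKM or more. Fold changes on this scale understate those of genes near 0.1 FPKM. Counts by p alone (limma, unadjusted or adjusted) are given below as a description. The share of all tested genes that such a p would include was not counted.

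By the loci in the deposited data, 22 of the 38 genes (57.9%) shared theirs with another gene, against 40.5% of all genes with at least 0.3 FPKM in every Tyr-L library 41.9% of those with a Tyr-L mean under 3 FPKM and 45.4% of the 1109 with one under 1 FPKM, and 16 stood alone, 11 of them protein-coding. In the annotation 15 genes overlapped no other gene, 20 overlapped a listed gene and 13 had exon bases in common with one. The strand setting of the counting is not given in the sources used here, so reads from overlapping genes may have been assigned to either, on the opposite strand too. The extreme was *Exosc6* (ENSMUSG00000109941, chromosome 8, 111056339 to 111057664, plus strand), of which 100% of the exon bases lie in an exon of *Aars*, the alanyl-tRNA synthetase gene, on the same strand. *Aars* had 60.4, 65.9 and 63.5 FPKM in Tyr-L and 99.3, 101 and 102 FPKM in Tyr-H, a log2 fold change of 0.67 (SE 0.04), against the direction of *Exosc6*. Of the 9 other listed exosome subunits 0 were called by limma (median log2 fold change -0.29), though at an unadjusted p under 0.05 6 were lower in Tyr-H and 2 higher. *Lrrc14b* lies wholly in exons of *Ccdc127*, on the opposite strand, and *Ccdc127* had 14.5, 16.8 and 18.7 FPKM in Tyr-L and 14.2, 16.6 and 15.3 FPKM in Tyr-H. Its groups overlapped, and its log2 fold change of -0.11 (adjusted p = 0.347, limma) turned to 0.05 under median ratio scaling. The part of read assignment in the values of *Exosc6* and *Lrrc14b* was not tested.

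Of 20 tested genes that overlap the set, 3 were called lower, where 5.78% of all tested genes were, 0 were called higher and the median log2 fold change was -0.29. At an unadjusted p under 0.05 (limma), 12 were lower and 1 was higher, beside a median log2 fold change of -0.15 over all tested genes. *Maml3*, a coactivator of Notch signalling that contains *Gm37526* in an intron, fell from 1.72, 1.96 and 1.94 FPKM to 0.673, 0.683 and 0.718 FPKM (log2 fold change -1.32, SE 0.14). The lincRNA *Ino80dos*, which contains *Gm20342*, fell from 1.03, 1.14 and 1.03 FPKM to 0.0548, 0.553 and 0.399 FPKM (log2 fold change -1.66, SE 0.46, adjusted p = 0.0121 from limma). Its value was -1.03 without Tyr-H replicate 1 and -2.07 without Tyr-H replicate 2, and its call was lost with a pseudocount of 1 (-0.65). *Trim71*, an RNA-binding regulator of stem cells opposite to *C130032M10Rik*, fell from 0.771, 0.840 and 0.769 FPKM to 0.410, 0.276 and 0.304 FPKM (log2 fold change -1.07), a call lost under median ratio scaling (-0.94) and without Tyr-H replicate 2 (-0.98). The calls of *Maml3* (-0.76) and *Trim71* (-0.43) were also lost with a pseudocount of 1. Other overlapping genes differed less between the groups. *Tnpo3*, a nuclear import receptor, had 66.7 to 68.9 FPKM in Tyr-L and 50.6 to 52.9 FPKM in Tyr-H. *Zranb3* (-0.86), *Sfi1* (-0.96) and *Dock3* (-0.96) had negative log2 fold changes short of the limit, and the last pair passed it in some alternatives (*Sfi1* -1.07 and *Dock3* -1.06 after rescaling to equal totals, -1.01 and -1.05 without Tyr-L replicate 2, *Sfi1* -1.02 without Tyr-H replicate 2, *Dock3* -1.01 without Tyr-H replicate 1). Over the 12 tested genes that contain a whole gene of the set, on either strand, log2 fold changes ran from -1.66 to 0.67 and 9 were negative. Of these *Ccdc127* turned positive under median ratio scaling (0.05). The share of all tested genes with a negative value was not counted.

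**Figure D3:**
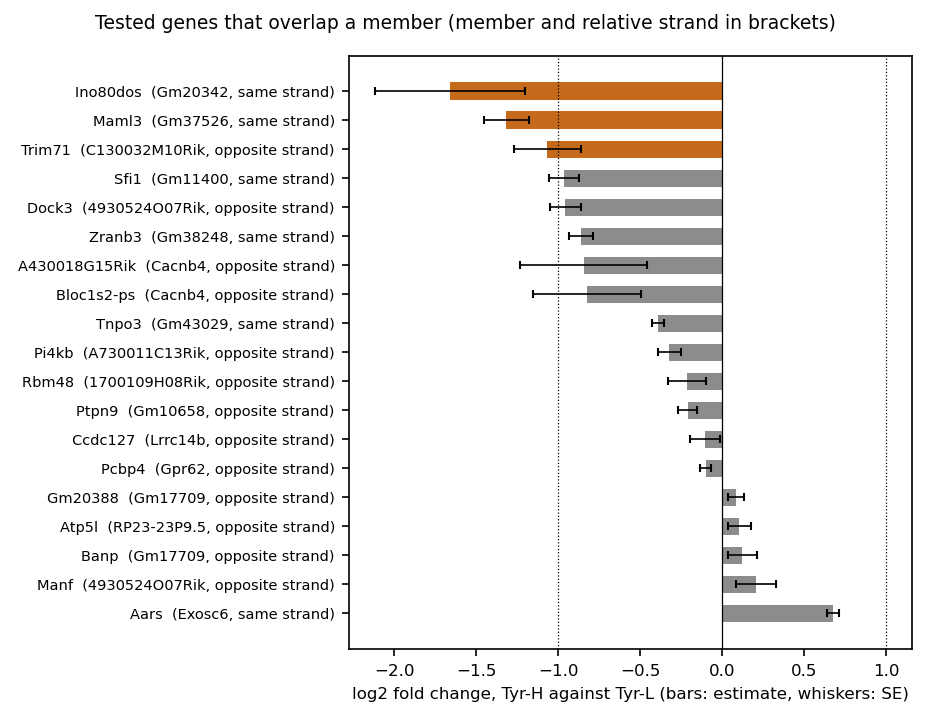
Log2 fold change between Tyr-H and Tyr-L, positive where Tyr-H is higher (bars, with SE as whiskers, limma on 3 libraries a group) of 19 of the 20 tested genes that overlap a gene of the set, named in brackets with the relative strand. The 3 orange bars at the top, *Ino80dos*, *Maml3* and *Trim71*, were called lower, and dotted lines mark the limits at -1 and 1.

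Some members lie in clusters of related genes. *Ifi213* (ENSMUSG00000073491, chromosome 1, 173566283 to 173599274, minus strand) lies in the PYHIN cluster, and 8 other listed PYHIN genes lie within 1 Mb. All 8 had a higher mean in Tyr-H. Of these 4 could be tested, and all 4 were called higher in Tyr-H. With a pseudocount of 1 all 4 calls were lost (*Aim2* 0.80, *Ifi204* 0.51, *Ifi211* 0.50 and *Ifi203* 0.23). Each of the 4 had a Tyr-L mean under 0.1 FPKM and so reached the filter through its Tyr-H values, which left little room for another outcome, and the count is given as a description. *Aim2*, the cytosolic DNA sensor that assembles an inflammasome, 100 kb from *Ifi213*, rose from 0.0998, 0.0193 and 0 FPKM in Tyr-L to 0.775, 0.973 and 0.686 FPKM in Tyr-H (log2 fold change 2.76, SE 0.32). *Ifi204* rose from 0.0560, 0.0857 and 0.0562 FPKM to 0.433, 0.571 and 0.559 FPKM (1.90, SE 0.26), and *Ifi211* from 0.0296, 0.0820 and 0.0873 FPKM to 0.399, 0.559 and 0.585 FPKM (1.89, SE 0.29). *Ifi203* had 0.0428, 0.0460 and 0.162 FPKM in Tyr-L and 0.191, 0.295 and 0.332 FPKM in Tyr-H (1.06, adjusted p = 0.0263 from limma), a call lost when any of 4 libraries was left out (0.91 without Tyr-L replicate 1, 0.93 without Tyr-L replicate 2, 1.01 without Tyr-H replicate 2 and 0.95 without Tyr-H replicate 3). No transcript at least 80% identical to *Ifi213* over at least 50% of its length was found.

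*Fbxw15* (chromosome 9, 109552602 to 109568262, minus strand) lies among other F-box genes. Within 1 Mb lie 5 other listed *Fbxw* genes, and the 3 that could be tested were all called lower in Tyr-H, as 5.78% of all tested genes were. With a pseudocount of 1 all 3 calls were lost (*Fbxw18* -0.94, *Fbxw24* -0.71 and *Fbxw25* -0.49). Of these *Fbxw25* reached the filter through its Tyr-L values. *Fbxw24*, 32.9 kb away, fell from 0.635, 1.04 and 0.858 FPKM to 0.0680, 0.124 and 0.176 FPKM (log2 fold change -2.09, SE 0.28). *Fbxw25*, 76.9 kb away, fell from 0.438, 0.372 and 0.695 FPKM to 0.0342, 0.156 and 0 FPKM (-1.96, SE 0.39), and *Fbxw18*, 108 kb away, from 2.60, 2.13 and 2.44 FPKM to 0.931, 0.725 and 0.636 FPKM (-1.54, SE 0.16). These genes are not independent measurements. The *Fbxw15* transcript was 89.0% identical to that of *Fbxw25* over 99.7% of its length, and 13 genes were similar to it, so reads may have been divided among them. The 8 tested *Fbxw* genes elsewhere, such as *Fbxw7* (Tyr-L 7.65 to 7.96 FPKM and Tyr-H 4.21 to 4.61 FPKM, log2 fold change -0.79), were not called, as their changes were under the fold limit. By adjusted p alone (at most 0.05, limma) 7 of the 8 differed, 6 lower in Tyr-H and 1 higher, *Fbxw11* (0.15).

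*Pcdhb12* lies among the beta protocadherins, single-exon genes that give neurons a surface identity. Of 20 other listed members within 1 Mb, 19 had the higher mean in Tyr-L. All 10 that could be tested had a negative log2 fold change, and 6 were called lower, where 5.78% of all tested genes were. Of the 10, 4 had a Tyr-H mean under 0.1 FPKM and so reached the filter through their Tyr-L values, which left little room for another sign. *Pcdhb20* was the 1 of these 4 that was called. Both counts include these 4 genes, for which they are a description. *Pcdhb16* fell from 2.54, 2.39 and 2.56 FPKM to 0.718, 0.773 and 0.689 FPKM (log2 fold change -1.65, SE 0.13) and *Pcdhb17* from 0.595, 0.654 and 0.459 FPKM to 0.0535, 0.169 and 0.110 FPKM (-1.69, SE 0.29). *Pcdhb14* (-1.23) and *Pcdhb15* (-1.25) were called too. *Pcdhb18* (-1.001) and *Pcdhb20* (-1.05) were near the limit and lost their calls under median ratio scaling (-0.90 and -0.97). *Pcdhb18* also lost it without Tyr-L replicate 1 (-0.86), Tyr-H replicate 1 (-0.91) or Tyr-H replicate 3 (-0.99), and *Pcdhb20* without Tyr-L replicate 2 (-1.08, by its adjusted p), Tyr-H replicate 2 (-0.99) or Tyr-H replicate 3 (-0.85). Without Tyr-L replicate 3 *Pcdhb20* fell below the filter and could not be tested. With a pseudocount of 1 the call of *Pcdhb16* held (-1.02), and those of *Pcdhb14* (-0.42), *Pcdhb15* (-0.52), *Pcdhb17* (-0.50), *Pcdhb18* (-0.26) and *Pcdhb20* (-0.21) were lost. The *Pcdhb12* transcript had 5 similar genes, with *Pcdhb11* 88.8% identical over 80.8% of it, so here too reads may have been divided.

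**Figure D4:**
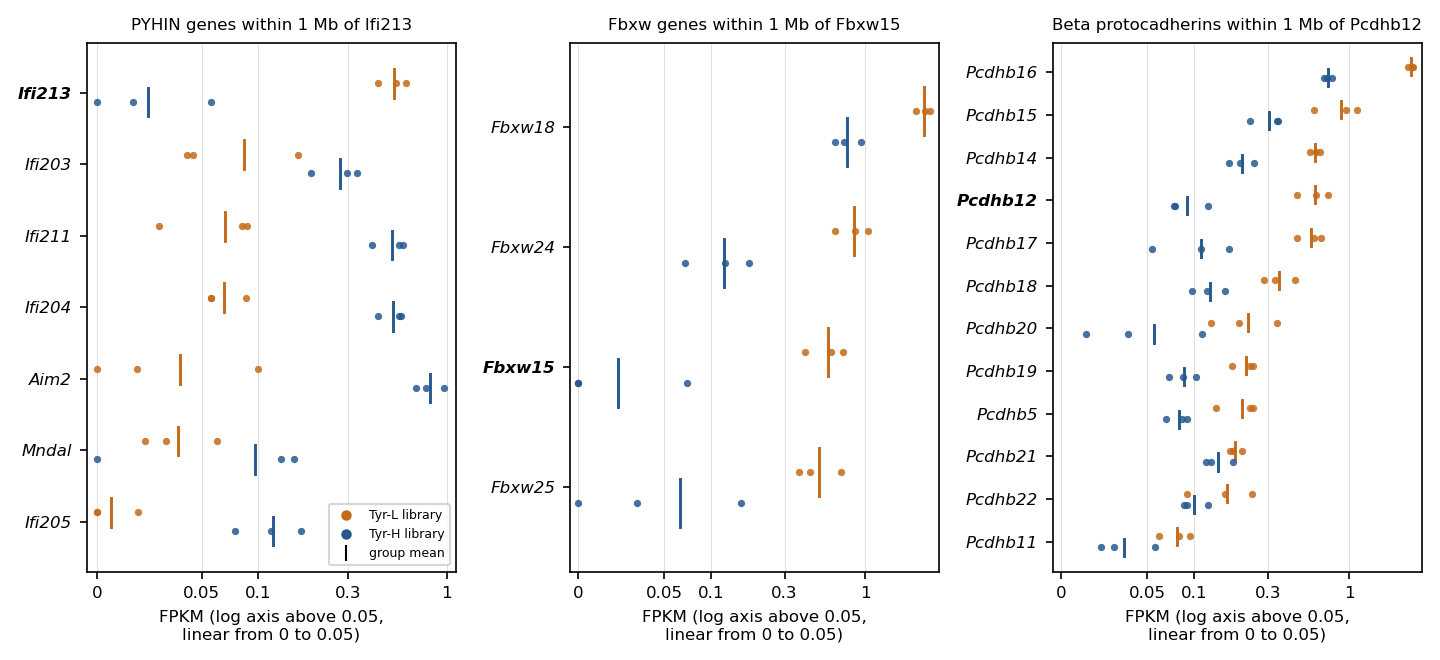
FPKM by library of *Ifi213*, *Fbxw15* and *Pcdhb12* (bold) and of related genes within 1 Mb with summed group means of at least 0.1 FPKM, ordered by the Tyr-L mean. Points are libraries and vertical lines are group means. In the left panel the Tyr-H means of the relatives of *Ifi213* lie to the right of their Tyr-L means, whereas in the other panels the Tyr-L means lie to the right for every gene.

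*Gpm6a*, the closest relative of *Gpm6b* among membrane proteolipids, fell from 6.64, 6.07 and 7.18 FPKM to 2.18, 2.30 and 2.14 FPKM (log2 fold change -1.54, SE 0.09). *Mbp*, myelin basic protein, had 135 to 152 and 244 to 255 FPKM (log2 fold change 0.79, below the limit). Of the 6 myelin and proteolipid genes tested outside the set, *Gpm6a* was the 1 called. Among fatty-acid-binding relatives of *Pmp2* 4 were tested, all with negative log2 fold changes (median -0.68), of which that of *Fabp5* turned to 0.06 under median ratio scaling. *Crabp2* was called lower (-1.83, SE 0.22), and *Fabp3* (-0.75) and *Fabp7* (-0.61) passed by adjusted p (limma) but were short of the fold limit. *Fabp5*, on the same chromosome 163 kb from *Pmp2*, had a Tyr-L mean of 432 ± 14.7 FPKM and a Tyr-H mean of 405 ± 8.66 FPKM (SD, n = 3 each, log2 fold change -0.09). Among calcium channel pore subunits *Cacna1a* fell from 0.779, 0.519 and 0.576 FPKM to 0.164, 0.140 and 0.322 FPKM (-1.26, adjusted p = 0.00411 from limma, and -0.43 and not called with a pseudocount of 1). *Cacna1c* had 0.121, 0.0564 and 0.0704 FPKM in Tyr-L against 0.691, 0.765 and 0.626 FPKM in Tyr-H. It belongs to the opposite set and reached the filter through its Tyr-H values, so its log2 fold change of 2.13 is a description. In the ABCC family of *Abcc2*, *Cftr*, the chloride channel, rose from 0.188, 0.306 and 0.286 FPKM to 3.21, 3.29 and 3.21 FPKM (3.23, SE 0.17), and it was the only 1 of 5 tested relatives to be called. *Rhox5* of the *Rhox2d* cluster did not differ beyond its spread (Tyr-L 1.95, 2.31 and 1.65 FPKM, Tyr-H 1.49, 2.13 and 2.00 FPKM).

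Along the genome the set was scattered. The 38 genes lay on 15 chromosomes, with 6 on chromosome 9 (15.8%, against 6.04% of all genes with at least 0.3 FPKM in every Tyr-L library). No pair of them lay within 100 kb, and 1 pair, *4930524O07Rik* and *Gpr62* on chromosome 9, lay within 1 Mb, at 426 kb. Within 1 Mb of the set 897 other genes were tested, of which 65 (7.25%) were called lower and 21 (2.34%) higher, against 5.78% and 2.96% of all tested genes, and their median log2 fold change of -0.16 was near the -0.15 of all tested genes. By member, the median of these neighbours ran from -0.87 around *Sucnr1* (4 genes) to 1.90 around *Ifi213* (4 genes). The 4 around *Ifi213* are the PYHIN genes that reached the filter through their Tyr-H values, so their median is a description. Around *Fbxw15* 39 genes were tested, its *Fbxw* neighbours included, with a median of -0.18, 4 called lower and 1 called higher.

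The lineage of the cells was checked with marker lists, none of which holds a gene of the set. Melanocyte markers were high in all libraries, with a summed level of 7584 to 7907 FPKM in Tyr-L and 5647 to 6201 FPKM in Tyr-H, and *Ednrb* of this list of 12 was not listed. Of 11 tested, 3 were called lower in Tyr-H (*Mitf*, *Oca2* and *Kit*) and 1 higher (*Tyr*), with a median log2 fold change of -0.64. At an unadjusted p under 0.05, 9 were lower and 1 was higher. *Mitf*, the lineage's master regulator, had 98.2, 86.7 and 86.6 FPKM in Tyr-L and 26.8, 24.7 and 23.7 FPKM in Tyr-H (-1.85, SE 0.06). *Kit* (-1.13) lost its call under median ratio scaling (-0.99) and without Tyr-H replicate 3 (-0.93), and *Tyr* (1.08) lost it after rescaling to equal totals (0.99). With a pseudocount of 1 the calls of *Oca2* (-0.98) and *Kit* (-0.54) were lost. *Gpr143* (-0.96) was called lower after rescaling to equal totals (-1.06) and without Tyr-H replicate 1 (-1.02).

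Markers of nerve, muscle, germ cells and blood were checked next, while liver and kidney had no list. Of 8 tested Schwann cell and glial markers 1 was called lower (5.78% of all tested genes were), *Gfap*, with 2.08, 1.72 and 1.45 FPKM in Tyr-L and 0.723, 0.696 and 0.666 FPKM in Tyr-H (-1.20, SE 0.17), and the summed level of this list was lower in Tyr-L (239 to 247 FPKM) than in Tyr-H (326 to 341 FPKM), with *Egr2* near 0. That sum was carried by *Mbp*, and without it the list had 94.3 to 104 FPKM in Tyr-L, above the 81.6 to 85.5 FPKM of Tyr-H. The median log2 fold change of the list was -0.28, and at an unadjusted p under 0.05 4 of its genes were lower in Tyr-H and 1 higher. Of neuronal markers 3 of 10 were tested and 0 called by limma (2 had an unadjusted p under 0.05, 1 in each direction), and *Stmn2*, *Elavl4*, *Nefl* and *Nefm* were not listed. Of striated muscle markers 5 of 10 were tested and 0 called by limma (2 had an unadjusted p under 0.05, 1 in each direction), with summed levels of 6.04 to 6.56 FPKM in Tyr-L and 6.89 to 7.48 FPKM in Tyr-H, and *Myod1*, *Myog* and *Actc1* were not listed. Without *Des* the muscle sum was 2.92 to 3.32 FPKM in Tyr-L, above the 2.48 to 2.63 FPKM of Tyr-H. The median log2 fold change of the 5 tested muscle genes, *Des* included, was -0.37. Germ cell markers summed to 0.0822 to 0.225 FPKM in Tyr-L and 0.0788 to 0.1496 FPKM in Tyr-H, with 7 of 8 under 0.1 FPKM in every library. Of leukocyte markers *Ptprc*, *Cd3e*, *Itgam* and *Csf1r* were not listed, and 1 of 5 tested was called higher in Tyr-H, *Cd74*, whose Tyr-L mean was 0.0442 FPKM and Tyr-H mean 0.645 FPKM. *Cd74* is in the opposite set too and passed the filter through Tyr-H, so its call is likewise a description. An unlisted gene was taken as 0 and is not read as unexpressed, which was not tested. *Exosc6* was likewise unlisted in Tyr-H. Among the listed markers, *Tubb3*, *Des* and the glial markers *S100b* (25.7 to 32.2 FPKM over the 6 libraries) and *Mbp* had values in both groups. Of the lists for endothelium (2 tested), fibroblasts (5), smooth muscle (2), erythroid cells (3), bone (2) and germ cells (1), 0 genes were called by limma, with 1, 3, 0, 0, 2 and 0 at an unadjusted p under 0.05, and no epithelial marker reached the filter. The neural crest list had 1 of 6 called, *Ngfr*, higher in Tyr-H (0.210, 0.254 and 0.279 FPKM in Tyr-L, then 1.11, 1.44 and 1.87 FPKM, log2 fold change 2.16). With a pseudocount of 1 the calls of *Gfap* (-0.69) and *Ngfr* (0.98) were lost.

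Genes close to the limits differ little from those outside. Just inside 0.3 FPKM lay *Gm45546*, *1700109H08Rik* and *Cacnb4*, with a lowest Tyr-L library of 0.301, 0.311 and 0.313 FPKM, and just outside lay *9630013D21Rik*, *BC030343* and *4930555B11Rik* with 0.2996, 0.298 and 0.293 FPKM. Just under 0.15 FPKM in the highest Tyr-H library lay *Pmp2* (0.149), *Gm45546* (0.147) and *Gm38248* (0.145), and just above it lay *Gm43858* (0.152), *Fgf2* (0.153) and *Gm9958* (0.153). Which genes met the rule also depended on the scale of FPKM. The deposited values of a library summed to 446757 to 456749 FPKM in Tyr-L and 473089 to 494468 FPKM in Tyr-H, and after each library was rescaled to a total of 1000000, 56 genes met the same limits, of which 10 were among the 38.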

How the data were processed

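RNA from 3 Tyr-L and 3 Tyr-H libraries was prepared with an mRNA kit and sequenced in paired reads of 150 bp. The submitters' processing notes name Trimmomatic, HISAT, HISAT2 and GRCm38.p6. The quantifier, annotation and strand setting are not given in the sources used here. The authors deposited FPKM values per library, and genes a library does not list were taken as 0. Sample groups came from the labels. The 38 genes, the gene lists, families and roles were chosen with earlier results of these data known. Named genes were the members, their overlapping, neighbouring and related genes, the marker lists and the genes nearest to the limits. Tests used limma 3.58.1 (R 4.3.3, variance trend) on log2(FPKM + 0.1). On simulated data with 14096 genes, 99.5% of 200 genes changed by 2 on the log2 scale were called and 6 others were. The 200 were drawn only from genes with a geometric mean of FPKM + 0.1 above 1. Recovery at the lower levels of the set and of many named relatives was not tested. Depth was estimated per library from the value of 1 fragment, taken as the median of FPKM times kb between 0.03 and 0.065. Of 1392 eligible genes with transcripts of at least 1500 nt, 139 to 155 per library lay in that range. The range was preset and bounds the depth estimate, which covers counting error only. Similar transcripts were found with blastn 2.17.0 (at least 80% identity over at least 50% of the member transcript). Alternatives were other limits, pseudocounts, filters and scalings, a replicate block and each library left out. A few genes are not reported here.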

Additional observations from a re-analysis of the deposited data

How the results depend on the processing

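With a limit of 0.1 FPKM in the near-silent group, 18 genes met the rule (25 in the opposite set). With at least 0.5 FPKM in the expressing group it was 14 (19), with limits on group means 180 (96), and among genes listed in all 6 libraries 24 (22), against 38 and 40. Leaving out 1 library gave 55 to 58 genes (58 without Tyr-L replicate 2) and 45 to 50 in the opposite set, since fewer libraries then have to meet the limits. Median ratio scaling gave 32, all among the 38. The 829 genes called lower and 425 called higher became 203 and 185 with a pseudocount of 1, and 393 and 247 with a mean of at least 1 FPKM, where fewer genes are tested. Rescaling to a total of 1000000 FPKM, which also raises all values against the fixed pseudocount and filter (15719 genes tested), gave 1287 lower. Of called genes 33.89% were higher, against 48.4% under median ratio scaling and 26.2% after rescaling to equal totals, and the median over all tested log2 fold changes moved from -0.15 to -0.01 and -0.25. With 1 library left out, 741 to 849 were called lower and 385 to 451 higher. Deviations of libraries with the same replicate number correlated at 0.009, 0.034 and -0.173, so the numbers do not pair the libraries, and with the replicate block 828 were called lower and 430 higher. Of 50 fold changes of genes outside the set 3 reversed, all under median ratio scaling and none of them called, those of *Ccdc127* (0.0456), *Fabp5* (0.0638) and *Rhox5* (0.0751). *Rhox5* ran from -0.187 to 0.0784 with 1 library left out. With a pseudocount of 1, 22 of their calls were lost, those of the PYHIN, *Fbxw* and most *Pcdhb* genes, *Ino80dos*, *Maml3*, *Trim71*, *Cacna1a*, *Cacna1c*, *Oca2*, *Kit*, *Gfap*, *Ngfr* and *Cd74*, as this scale shrinks changes under 1 FPKM. With the replicate block 1 was lost, that of *Pcdhb20*, by its adjusted p with the fold change still -1.05. With a median of 3 fragments per gene and Tyr-H library, the order of levels within Tyr-H is not resolved.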

Other observations

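Between the 2 sets defined by opposite limits, levels differed in range. The 40 genes near-silent in Tyr-L had Tyr-H means with a median of 0.614 FPKM and a highest value of 17.9 FPKM, that of *Cxcl2*, a neutrophil chemokine, while the 38 genes had a median of 0.542 FPKM and a highest value of 3.0 FPKM in Tyr-L. The 40 included 3 of the PYHIN neighbours of *Ifi213* (*Aim2*, *Ifi204* and *Ifi211*), the calcium channel gene *Cacna1c* and *Cd74*, the invariant chain. Both sets were chosen by their levels, and the difference between the sets was not tested.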
